A study of Mus musculus with 20 samples.

Results

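The kappa light chain variable (V) segments were taken as every row of the count table whose gene name starts with Igkv, which gave 160 of 55401 genes. Their transcripts were counted in bulk RNA-seq of spleen, small intestine, kidney, liver, and heart, 5 tissues in all, from WT mice and from Nsun6-KO mice, with 2 libraries for each tissue and genotype and 20 in all. The mice were females of 8 weeks on the C57BL/6J background, and the KO strain lacks exons 3 and 4 of Nsun6, which encodes an RNA cytosine methyltransferase, as a germline deletion made with CRISPR/Cas9. No group carried another allele or a treatment. The paper calls the libraries of a group biological replicates and the labels name no animals, so the p-values below measure the spread between libraries.

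In each developing B cell, one V segment is joined to one of the joining (J) segments by the RAG recombinase, and the joined exon is spliced to the kappa constant exon (Igkc). The V segment a B cell has joined is transcribed at a high level, and more so once the cell has become a plasma cell, so the counts of the Igkv rows in a tissue describe which segments its B cells and plasma cells carry, weighted by how much light chain RNA each cell makes. Segments lie on both strands, and joining can proceed by deletion or by inversion. In bulk tissue, fewer cells of a type and less RNA per cell cannot be told apart.

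The germline segments end a few codons after a conserved cysteine, and the codons after it form the start of the third complementarity-determining region (CDR3), the part of the chain that differs most between antibodies. The 3′ coding ends of the segments that lead the results are shown first, 5′ to 3′ on the coding strand, from the GENCODE M21 transcripts of GRCm38. Capitals mark the conserved codons for tyrosine, tyrosine or phenylalanine, and cysteine, and lower case marks the germline bases of the CDR3.
Igkv1-117: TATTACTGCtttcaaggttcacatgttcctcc
Igkv1-110: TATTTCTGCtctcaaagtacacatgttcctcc
Igkv10-96: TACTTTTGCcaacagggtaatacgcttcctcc
Igkv6-15: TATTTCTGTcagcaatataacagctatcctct
Igkv12-46: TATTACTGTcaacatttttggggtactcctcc
Igkv4-57: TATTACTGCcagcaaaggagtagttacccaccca
Igkv6-17: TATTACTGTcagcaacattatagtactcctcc
Igkv3-2: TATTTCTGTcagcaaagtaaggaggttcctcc
Igkv8-34: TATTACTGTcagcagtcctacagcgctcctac
Igkv7-33: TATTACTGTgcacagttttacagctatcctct
This run of 9 bases was found near the 3′ end of 97 of the 100 rows annotated as V genes and of 34 of the 60 annotated as pseudogenes, and a median of 23 bases followed it in the V genes.

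All 160 rows lie on chromosome 6, between positions 67555497 and 70704177 of GRCm38, a span of 3.15 Mb. The J segments follow, with Igkj1 at chr6:70722562-70722599, and Igkc at chr6:70726435-70726966. Igkv3-1 lies nearest to Igkj1, at 18.4 kb, and Igkv2-137 farthest, at 3166 kb. The segments belong to 20 families by the first number of their symbol, of which family 4 is the largest with 33 rows, and 75 lie on the plus and 85 on the minus strand. All coordinates matched GENCODE M21, and 1 row (Igkv2-137) overlaps an exon of another gene.

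Near-identical segments may limit what a count can say about a single one. Among the 100 V genes, the transcript was identical to the nearest other segment over a median of 94.7% of its bases, 48 had a partner above 95%, and 95 found it in their own family. A median of 24.8% of the 50-base windows of a V gene occurred in another Igkv transcript, and how the reads were placed was not tested. Igkv1-117 and Igkv1-110 were 97.5% identical and are shown over the last 120 coding bases, with capitals where the second differs from the first, at chr6:68121708-68121827 and chr6:68271148-68271267 on the plus strand.
Igkv1-117: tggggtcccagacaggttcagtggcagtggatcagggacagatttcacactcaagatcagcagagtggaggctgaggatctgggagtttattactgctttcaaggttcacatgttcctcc
Igkv1-110: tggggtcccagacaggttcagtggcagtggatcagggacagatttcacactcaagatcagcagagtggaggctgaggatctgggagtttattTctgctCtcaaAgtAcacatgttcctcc
These ends differed at 4 of 120 bases, and 49.9% and 50.9% of the windows of Igkv1-117 and Igkv1-110 were shared with other segments.

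Total counts per library ranged from 15897446 to 44508197. The spleen libraries held 69113 and 44034 Igkv counts in WT against 58094 and 83439 in KO. The small intestine held 9740 and 20098 in WT against 703 and 21227 in KO, so that KO replicate 1 was far below the others. Liver, kidney, and heart held between 10 and 762, and usage was not compared there. Pseudogene rows took under 1% of the Igkv counts in each spleen and small intestine library. The intervals given below, on shares and on pooled counts, carry only counting error and leave out the spread between libraries. Mates of a pair may have been counted as separate reads, and such counts are not independent. The intervals may thus be too narrow even as counting error. The limits that rest on a floor of 3 counts may be too tight for the same reason.

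Several libraries stood apart from others of their group. In the small intestine, the summed counts scaled to library size (CPM, counts relative to the TMM-scaled library total) of 14 proximal genes (most abundant Fabp1) were 813 and 16877 in WT against 1354 and 16976 in KO replicates 1 and 2, while those of 11 distal genes (most abundant Fabp6) were 18307 and 5526 in WT against 23118 and 6358 in KO. Replicates 1 thus carried distal and replicates 2 proximal markers in both genotypes. Of the B cell genes, Ms4a1 (CD20) was at 98.2 and 0.0794 CPM in WT against 0.653 and 13.6 in KO small intestine, so WT replicate 1 was far above the other small intestine libraries in this B cell marker. The summed smooth muscle genes were at 343 and 511 CPM in WT against 2768 and 1553 in KO small intestine. In the spleen, WT replicate 2 held hepatocyte RNA (3996 CPM over 18 genes, against 12.8, 147, and 211 in the other spleen libraries), and the erythroid genes summed to 12714 and 17188 CPM in WT against 29272 and 32862 in KO. The tissue labels otherwise matched their defining markers. Against the spleen, the small intestine had 18 of 18 B cell genes and 18 of 19 erythroid genes called lower. It had 14 of 14 enterocyte genes called higher. All 18 B cell genes had enough counts to be tested within either tissue alone. Only 11 of the 19 erythroid genes did so in the small intestine, and 10 of the 14 enterocyte genes in the spleen. The other erythroid and enterocyte genes entered only through the tissue where they were high. Their direction was thus fixed beforehand and does not check the labels.

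Nsun6 itself was not called in the spleen or the small intestine at the level of the whole gene. It was at 6.07 and 4.36 CPM in WT against 4.03 and 6.64 in KO spleens, and at 9.82 and 6.19 in WT against 9.68 and 5.24 in KO small intestines, and the genotypes overlapped. Both KO libraries were below both WT libraries in the liver (7.23 and 4.83 in WT, 4.03 and 4.56 in KO), the kidney (5.44 and 5.84, 3.91 and 3.32), and the heart (7.03 and 6.65, 5.997 and 5.50), which was not tested. Most of the gene lies outside the deleted exons, so these counts do not check the genotype.

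The first question was which segments the B lineage cells of the spleen used. Usage was measured as the share of all Igkv counts in a library, and segments were put in order by the share after division by the merged exon length. Igkv1-117 had the highest mean over the 4 spleens, with 8.73% and 6.73% of Igkv counts in WT against 13.9% and 11.1% in KO. Igkv1-110, which was the highest segment of WT replicate 2, followed with 7.75% and 7.91% in WT against 5.44% and 2.65% in KO. Igkv10-96 held 4.85% and 3.39% in WT against 5.36% and 1.93% in KO, and Igkv1-135 held 4.78% and 4.36% in WT against 4.25% and 2.98% in KO. In Igkv1-117 both KO spleens were above both WT spleens and in Igkv1-110 and Igkv1-135 below them, while the genotypes overlapped in Igkv10-96. Igkv6-15, Igkv9-120, Igkv12-46, Igkv19-93, Igkv14-111, and Igkv4-59 completed the 10 highest, with mean shares per length between 2.37% and 3.20%, and from Igkv6-15 on, neighbours in this order differed by less than the SD of either over the 4 libraries. Igkv1-117 stood further above Igkv1-110 (9.33% and 5.50% per length, SD 2.88 and 2.27), and Igkv1-135 lay above Igkv6-15 by 0.66, more than the SD of the latter (0.55). Usage was broad: between 12 and 14 segments made up 50% of the counts in a spleen library and between 45 and 51 made up 90%.

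**Figure D1:**
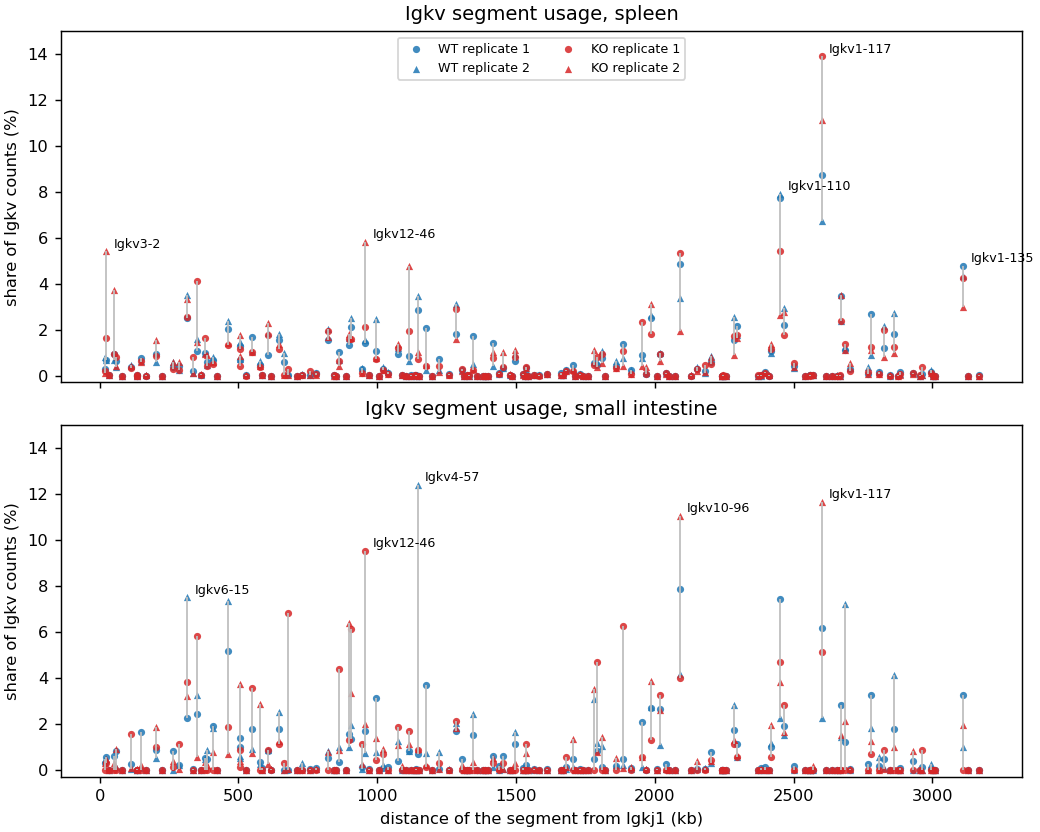
Share of all Igkv counts (%) of each of the 160 segments against its distance from Igkj1 (kb), in the 4 spleen (top) and 4 small intestine libraries (bottom), with blue for WT and red for KO, circles for replicate 1 and triangles for replicate 2, and a grey line from the lowest to the highest library. Igkv1-117 reached 13.9% in a KO spleen, and Igkv4-57 reached 12.4% in only 1 small intestine library.

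Highly used segments were found along the whole locus. In map order from the J segments, the 5 consecutive groups of 32 segments took 22.6% ± 4.31, 18.9% ± 2.87, 7.29% ± 0.80, 18.2% ± 2.54, and 32.98% ± 3.26 of the spleen counts (SD, n = 4). The middle group, which lies between 1222 and 1743 kb from Igkj1 and holds 17 pseudogenes, took less than each of the others in all 4 spleens. Across the 100 V genes, distance from Igkj1 and mean share per length had a Spearman correlation of 0.013 in the spleen and 0.009 in the small intestine, given as a description of segments that share libraries. Family 1, which includes Igkv1-117, Igkv1-110, and Igkv1-135, took 21.4% ± 3.06 of the spleen counts with 10 V genes, and family 4 took 15.97% ± 1.15 with 26. Families 19 and 16, with 1 V gene each, took 2.52% ± 0.54 and 1.82% ± 0.23 (SD, n = 4).

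The genotypes were then compared in the spleen, the tissue with the most Igkv counts. A call needed both an adjusted p under 0.1 and a change of more than 2-fold. Of the 160 segments, 103 passed the filter on low counts, and 1 of them was called lower (0.00531% of all genes tested were called lower) and 0 higher (0.218% of all genes). The only call was Igkv7-33, for which the WT spleens had 413 and 425 counts and the KO spleens 9 and 14. On the CPM scale the WT spleens were at 7.91 and 11.1 and the KO spleens at 0.205 and 0.330. It fell by 5.10 ± 0.41 on the log2 scale (SE, n = 2 against 2, adjusted p = 0.0656 in the edgeR quasi-likelihood test). As a share of Igkv counts it held 0.598% and 0.965% in WT against 0.0155% and 0.0168% in KO, so the genotypes were far apart. Without KO replicate 2 the estimate was -5.50 with an edgeR adjusted p of 0.117, and 0 genes of the whole table were called. The call was also lost in a fit of all 20 libraries (edgeR adjusted p = 1.0) and at an adjusted p under 0.05. DESeq2 called Igkv7-33 lower as well (log2 fold change -5.14, adjusted p = 3.59e-23), where 0.0518% of all genes were called lower.

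Igkv7-33 is a V gene on the minus strand at chr6:70058632-70059199, 663 kb from Igkj1, and the sole member of its family. Its closest relative, Igkv8-30, was 80.3% identical, and 0.633% of its 50-base windows occurred in another segment. The last 120 coding bases are shown with those of Igkv8-34, the neighbouring row, and Igkv8-30, all on the minus strand (chr6:70058632-70058751, chr6:70044112-70044231, and chr6:70117061-70117180), with capitals where a base differs from Igkv7-33 in the same column.
Igkv7-33: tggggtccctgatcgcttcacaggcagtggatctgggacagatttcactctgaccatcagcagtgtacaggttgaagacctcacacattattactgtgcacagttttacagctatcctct
Igkv8-34: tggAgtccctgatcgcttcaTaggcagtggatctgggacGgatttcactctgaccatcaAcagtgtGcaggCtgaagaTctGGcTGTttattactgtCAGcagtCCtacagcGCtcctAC
Igkv8-30: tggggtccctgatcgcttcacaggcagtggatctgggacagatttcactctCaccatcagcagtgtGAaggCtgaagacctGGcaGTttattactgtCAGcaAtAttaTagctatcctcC
The 2 relatives differed from it at 21 and 15 of the 120 bases.

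The neighbours of Igkv7-33 did not share its pattern. Igkv6-32, on the side of the J segments, was at 20.7 CPM in both WT spleens and at 15.2 and 27.1 in KO, with a log2 fold change of 0.08 ± 0.29 (SE). Igkv8-34, on the other side, was at 0.536 and 1.28 CPM in WT against 3.98 and 0.424 in KO (1.29 ± 1.13). In both neighbours the genotypes overlapped. The rows beyond them, Igkv1-35 and the pseudogene Igkv8-31, had at most 2 counts in a spleen and were not tested. In the small intestine Igkv7-33 had 0 counts in both WT libraries and in KO replicate 2, which allows shares of up to 0.0308%, 0.0149%, and 0.0141%, and 2 of 703 counts in KO replicate 1. It had 0 counts in every liver, kidney, and heart library, where few Igkv counts were present at all.

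**Figure D2:**
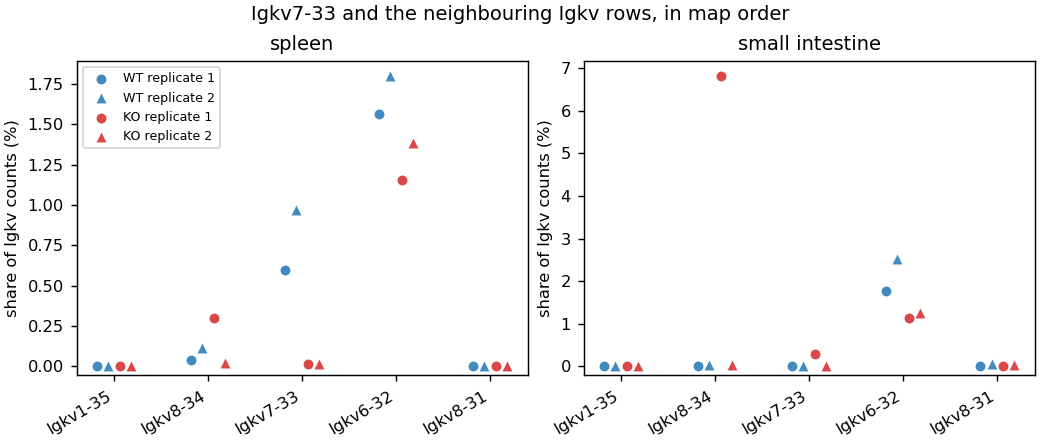
Share of Igkv counts (%) of Igkv7-33 and of the 2 Igkv rows on each side in map order, in each spleen (left) and small intestine library (right), with blue for WT, red for KO, circles for replicate 1, and triangles for replicate 2. Igkv7-33 lay at 0.598% and 0.965% in WT spleens and below 0.02% in KO spleens, while Igkv6-32 was above 1% in each library.

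No other segment was called in the spleen in edgeR. The median log2 fold change of the 103 segments was 0.31 (0.007 over all genes tested), 68 were higher and 35 lower, and 16 had an unadjusted p under 0.05 (15.5%, against 5.14% of all genes and 11.2% of the heavy chain V segments). The heavy chain V segments (Ighv), counted in the same libraries, had a median of 0.30 over 89 tested. The CPM of KO and WT did not overlap in 26 segments that were higher (25.2%, against 17% of all genes) and 15 that were lower (14.6%, against 14.4%). Among the lower ones, after Igkv7-33, Igkv4-63 was at 22.8 and 5.80 CPM in WT against 3.18 and 5.34 in KO, and Igkv4-90 at 3.28 and 2.77 in WT against 0.773 and 1.08 in KO. Igkv3-1, the segment nearest to the J segments, was at 3.97 and 9.17 CPM in WT against 2.52 and 2.17 in KO, and Igkv4-57 at 38.09 and 39.98 in WT against 9.42 and 19.8 in KO. Their log2 fold changes lay between -1.68 and -1.37, with standard errors from 0.37 to 0.78, and none was called in edgeR, while DESeq2 called Igkv4-90, Igkv3-1, and Igkv4-57 (adjusted p = 0.0332, 0.0704, and 0.0033, where 0.0518% of all genes were called lower). Without WT replicate 1 the estimate of Igkv4-63 was -0.43, and without WT replicate 2 that of Igkv3-1 was -0.69.

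Among the 5 highest estimates without overlap, 1 KO spleen was far above the other. Igkv3-2 was at 9.10 and 7.81 CPM in WT against 21.9 and 106 in KO (log2 fold change 2.98 ± 1.06), and Igkv4-55 at 11.3 and 7.08 in WT against 25.95 and 93.5 in KO (2.76 ± 0.88). Igkv3-4 was at 12.3 and 7.99 CPM in WT against 12.7 and 72.9 in KO (2.14 ± 1.16), and Igkv12-46 at 18.9 and 17.9 in WT against 27.8 and 115 in KO (2.01 ± 0.91). In these 4 segments KO replicate 2 was far above the other 3 spleens, and none was called in edgeR, while DESeq2 called Igkv4-55 (adjusted p = 0.0832, where 1.3% of all genes were called higher). Without KO replicate 2 the log2 fold changes of Igkv3-2, Igkv4-55, Igkv3-4, and Igkv12-46 were 1.39, 1.52, 0.34, and 0.61. Igkv5-37 was at 0.441 and 0.157 CPM in WT against 2.48 and 0.541 in KO (2.34 ± 0.84), with KO replicate 1 as the high library and an estimate of 0.87 without it. The most used segment, Igkv1-117, was at 116 and 77.4 CPM in WT against 184 and 219 in KO, with an estimated change of 1.11 ± 0.22 on the log2 scale that was not called in edgeR (adjusted p = 0.170) and was called in DESeq2 (adjusted p = 0.000492), as was Igkv6-17 (1.36 ± 0.31, adjusted p = 0.00157).

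**Figure D3:**
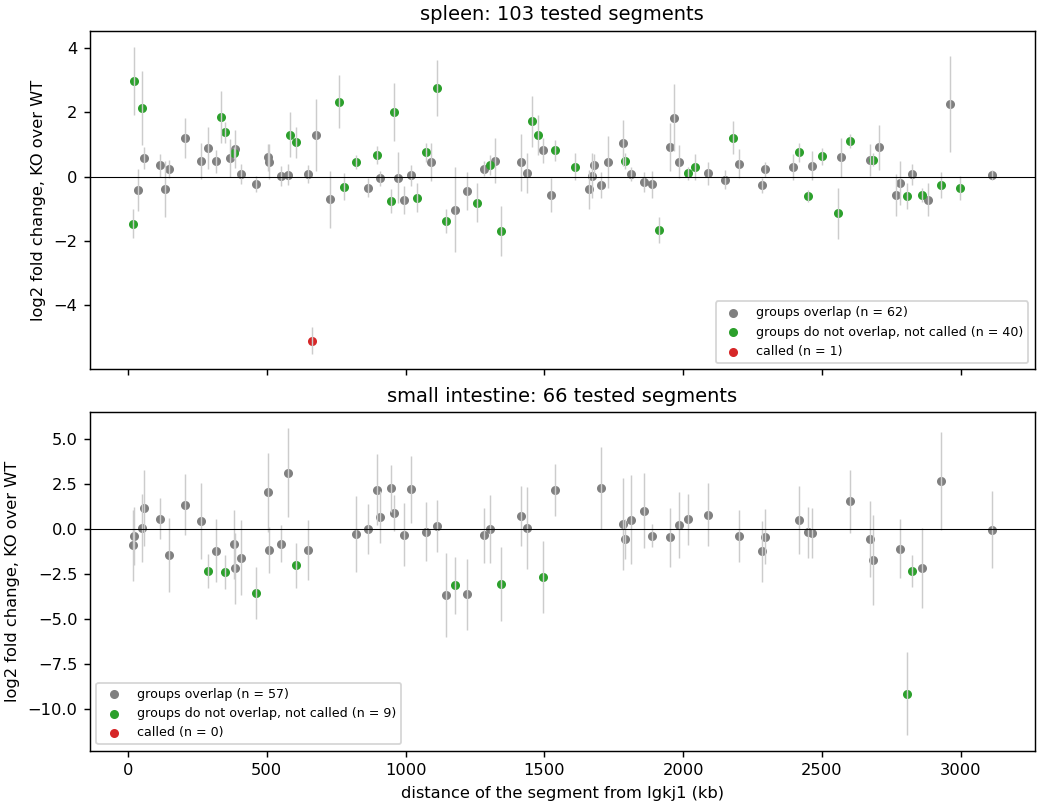
Log2 fold change of KO over WT with its standard error against the distance from Igkj1 (kb), for the 103 segments tested in the spleen (top) and the 66 tested in the small intestine (bottom). Red marks the only call (Igkv7-33 in the spleen), green the segments whose CPM did not overlap between genotypes without a call, and grey those that overlapped, and the lowest point of the lower panel is Igkv11-125, whose fitted value depends on the prior count since both KO libraries were at 0.

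Over all 160 segments, usage was less even in the KO spleens. The effective number of segments, which is the exponential of the Shannon entropy of the shares and equals the number of segments if all were used equally, was 52.7 and 53.0 in WT against 47.1 and 47.0 in KO spleens. The KO minus WT difference of the means, -5.77, was -2.24 without the highest segment of each library, without a change of direction. In percent of the WT mean it was -10.9% over all segments and -8.38% over the 17 segments with 10 counts in every library. The 10 highest segments of a library took 42.4% and 40.8% of its counts in WT against 45.4% and 46.5% in KO. Of 103 segments with a mean of at least 10 counts, the share was lower in both KO spleens than in both WT spleens in 33 and higher in 11 (10.7%). Shares sum to 100% in a library, so a rise of a few segments lowers the rest, and the heavy chain V segments gave like numbers (34.8% lower and 13.5% higher of 89). Shares that were at least 1% in 1 library and over 2 times that of the next spleen were found in 11 segments, a rule set after the values were seen, and 5 of these were highest in KO replicate 2, 3 in WT replicate 1, 2 in KO replicate 1, and 1 in WT replicate 2. Shares of the 160 segments correlated between spleens with Pearson coefficients from 0.707 (WT replicate 2 and KO replicate 2) to 0.935 (the 2 WT spleens). The erythroid genes moved with these groups: 7 of 19 were called higher in KO spleens, and all 19 were higher. Hepatocyte RNA did not follow genotype and was high in WT replicate 2 only. The part of either in the usage was not tested.

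Small intestine libraries each had their own leading segments. Igkv10-96 was first by mean share per length, with 7.87% and 4.19% of Igkv counts in WT against 3.98% and 11.1% in KO. Igkv1-117 followed with 6.19% and 2.25% in WT against 5.12% and 11.7% in KO, and Igkv6-15 with 2.24% and 7.51% in WT against 3.84% and 3.21% in KO. Igkv4-57 took 12.4% in WT replicate 2 and 0.688%, 0.853%, and 0.905% in the others. In KO replicate 1, which had only 703 Igkv counts, Igkv12-46 took 9.53% (95% Wilson interval 7.57% to 11.9%) and Igkv8-34 took 6.83% (5.19% to 8.94%), while Igkv8-34 stayed at or below 0.0377% in the other 3. Igkv1-110, Igkv6-23, Igkv6-17, Igkv12-44, and Igkv19-93 completed the 10 highest. All neighbours in this order differed by less than the SD of either, including Igkv10-96 and Igkv1-117 (6.97% and 5.77% per length, SD 3.51 and 3.64). By the rule used in the spleen, 20 segments stood out in 1 small intestine library, 9 of them in KO replicate 1.

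**Figure D4:**
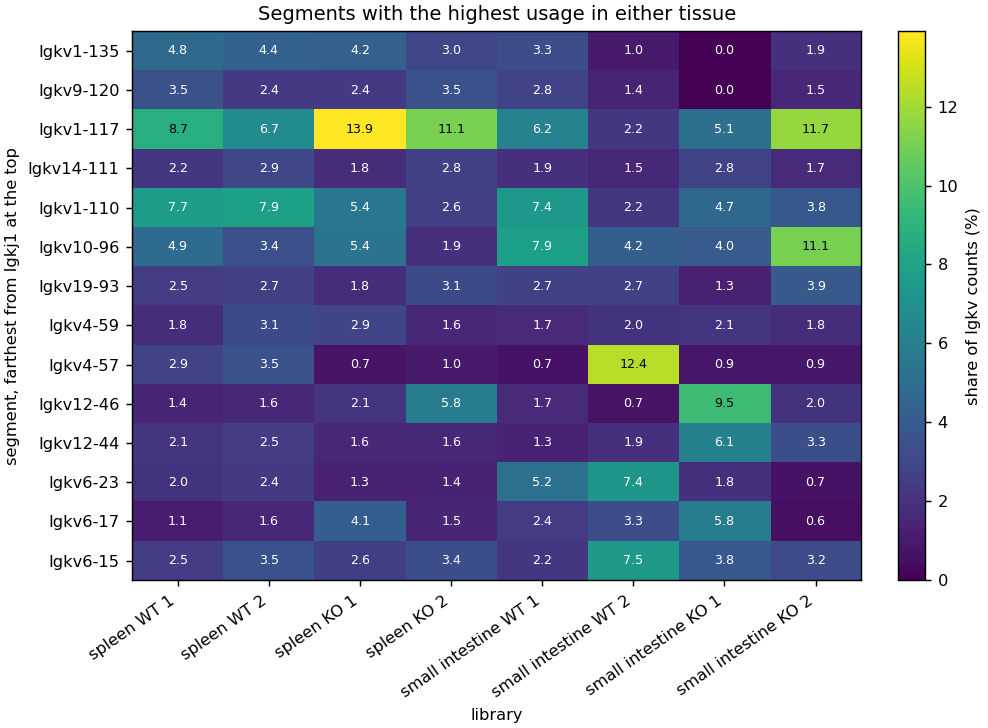
Share of Igkv counts (%) in each spleen and small intestine library of the 14 segments that were among the 10 highest by mean share per length in either tissue, with the farthest from Igkj1 at the top and the value printed in each cell. Igkv1-117 was above 5% in each library except small intestine WT replicate 2, where Igkv4-57 led with 12.4%.

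Over all 160 segments, the small intestine was less even than the spleen. Its effective number of segments was 46.1 and 34.9 in WT against 30.1 and 37.1 in KO, and each of these was below the lowest spleen library. The 10 highest segments took 45.6% and 54.7% in WT against 57.5% and 53.6% in KO. Restricted to the 17 segments with at least 10 counts in every library, the mean effective numbers were 12.4 for small intestine and 11.8 for spleen libraries, and without small intestine KO replicate 1 the former was 11.4. Depth differed between the tissues, and at an equal depth of 703 Igkv counts a library was expected to show between 76.2 and 82.0 segments in the spleen and 73.0, 60.3, 48.0, and 65.1 in small intestine WT replicates 1 and 2 and KO replicates 1 and 2. The shares of WT replicate 1, the library with the highest Ms4a1, correlated with those of the WT spleens with Pearson coefficients of 0.882 and 0.824 and with those of the KO spleens with 0.769 and 0.606, where KO replicate 2 was higher (0.801 and 0.677). The small intestine libraries correlated among themselves with coefficients from 0.302 to 0.746. The part of its B cell RNA in this likeness was not tested.

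No segment was called between KO and WT small intestines in edgeR. Of 66 segments tested, 0 were called in either direction in edgeR (0% of all genes), and 1 had an unadjusted p under 0.05 (1.52%, against 2.39% of all genes). DESeq2 called 1, without a share over all genes to set beside it. The median log2 fold change was -0.30, with 26 higher and 40 lower, and the Ighv segments had a median of -0.27 over 37 tested. Other lists had medians away from 0 with no gene called: 17 of 18 B cell genes (median -2.33), 15 of 16 plasma cell genes (-0.53), and 14 of 14 T cell genes (-1.05) had lower estimates in KO, and 10 of 10 smooth muscle genes (2.04) had higher ones, and their part in the Igkv values was not tested. The CPM did not overlap in 0 segments that were higher (13.6% of all genes) and 9 that were lower (13.6%, against 11.6% of all genes). By share of Igkv counts, 9 of 71 segments with a mean of at least 10 counts were higher without overlap (12.7%) and 15 lower (21.1%). The Ighv segments gave 13.9% and 19.4%. Igkv11-125 had 16 and 116 counts in WT and 0 in both KO libraries. It was at least 38.3-fold lower against a floor of 3 counts over the KO group (at least 8.03-fold from WT replicate 1 alone). It was the segment called by DESeq2. With only 703 Igkv counts, a 0 in KO replicate 1 allows a share of up to 0.427%, against 0.0141% in KO replicate 2. The 0 of KO replicate 1 thus says little about usage. Igkv6-23 was at 14.7 and 58.7 CPM in WT against 0.471 and 5.86 in KO (log2 fold change -3.56 ± 1.42). Igkv4-57-1 was at 10.5 and 5.83 CPM in WT against 0.0363 and 1.86 in KO (-3.13 ± 1.59). Igkv4-63 was at 4.27 and 19.4 in WT against 0 and 2.89 in KO (-3.05 ± 2.05), and Igkv4-72 at 3.14 and 13.01 in WT against 0 and 2.56 in KO (-2.68 ± 2.01). In the last 4 segments KO replicate 1 was the lowest library. Without WT replicate 2 the estimates of Igkv6-23, Igkv4-63, and Igkv4-72 were -2.23, -1.58, and -1.31, and without KO replicate 1 that of Igkv4-57-1 was -2.15. Without KO replicate 2 those of Igkv6-23 and Igkv4-57-1 were -6.37 and -7.74, while Igkv4-63 and Igkv4-72 were then compared with 0 counts.

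The small intestine was also compared within each replicate number, since the numbers went with the proximal and distal markers, over different sets of segments. Between the libraries of number 1, 16 of the 18 segments with at least 10 counts in both had a lower CPM in KO, and the median log2 ratio was -2.44. Between those of number 2, 25 of 58 were lower and 33 higher, with a median of 0.30. Each of these is a pair of libraries and gives no test.

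The small intestine was then compared with the spleen over both genotypes. Of 103 segments tested, 53 were called lower (51.5%, against 25.9% of all genes) and 0 higher (26.5% of all genes), with a median log2 fold change of -2.21 (-0.05 over all genes). Of the 103, 66 also passed the count filter when the small intestine libraries were taken by themselves, of which 21 were called lower with a median of -1.72. The other 37, of which 32 were called, passed only through the spleen, where they were high, so their direction was set by the filter. Among the Ighv segments, 28 of the 37 that passed in the small intestine alone were called lower (median -2.42), and the other 51, of which 42 were called, passed only through the spleen. The CPM of all 4 small intestine libraries lay below all 4 spleens in 53 segments (29.2% of all genes were lower in this way) and above them in 0 (28.4% of all genes). The 5 lowest estimates all belonged to segments that passed only through the spleen, and their values are a description. Igkv4-78 had 70 and 21 counts in WT against 21 and 39 in KO spleens and 0 in every small intestine library, which made it at least 31.7-fold lower against a floor of 3 counts over the 4 libraries. Igkv7-33, with 2 counts over the small intestine libraries, was 271-fold lower in pooled counts (exact counting interval 74.8 to 2242), a ratio carried by the 413 and 425 counts of the WT spleens. By share of Igkv counts, small intestine KO replicate 1 (0.284%) was above both KO spleens (0.0155% and 0.0168%). Igkv8-16, with 3 counts over the small intestine libraries, was 154-fold lower (52.6 to 749.8). Its spleen counts were 129 and 44 in WT against 463 and 99 in KO, so KO replicate 1 carried much of this ratio. With 1 library left out its fitted log2 fold change ran from -8.57 to -6.08. Igkv2-107 and Igkv9-129 had estimates of -6.11 and -5.86 on the log2 scale. They had 10 and 6 counts in small intestine WT replicate 1 and 0 in the other small intestine libraries. With 1 library left out their estimates reached -8.93 and -8.33. Among the called segments with the smallest changes, Igkv8-27 fell by 1.76 ± 0.60, Igkv6-25 by 1.82 ± 0.78, Igkv1-110 by 1.97 ± 0.85, and Igkv14-111 by 1.99 ± 0.84, all of which also passed in the small intestine alone. Igkv6-29, at -2.22, passed only through the spleen. With each library scaled to its summed Igkv counts these 5 were not called, at 0.50, 0.046, -0.31, -0.30, and -0.53 in the same order.

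Scaling within the locus lowered the number of calls. Each library was scaled to its summed Igkv counts. Of the 66 segments that passed in the small intestine alone, 0 were then called in either direction in edgeR. Of the same 66, 0 had an unadjusted p under 0.05 (median -0.12). The scaling makes the summed Igkv level equal in all libraries, so a median near 0 was partly built in. The lack of calls does not show equal usage. The 11 called lower (2.67% of all genes were) all passed only through the spleen, so their direction was set by the filter. By share, 17 of 97 segments with a mean of 10 counts were below all spleens in all small intestine libraries (17.5%, against 14.5% of the Ighv segments) and 1 was above (1.03%, against 2.41%). A mean of 10 counts could be reached through the spleen alone. How many of the 17 did so was not counted, so these numbers are a description. Leaving out small intestine KO replicate 2 raised the calls of the unscaled comparison to 101 of 109 (25.2% of all genes were called lower), so the count rests in part on that library.

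The effect of the KO was also compared between the tissues by the interaction of tissue and genotype. No segment was called in edgeR (0% of all genes). An unadjusted p under 0.05 was found in 7 of 103 (6.80%, against 4.21% of all genes and 7.95% of the Ighv segments). DESeq2 called 2, without a share over all genes to set beside them. For Igkv7-33 the interaction was 8.74 ± 2.05 on the log2 scale with an edgeR adjusted p of 0.999988, and DESeq2 called it (7.69, adjusted p = 0.0708). The segment had 2 counts in the 4 small intestine libraries and did not pass the filter there alone, so no small intestine change could be set against that of the spleen.

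The total level of the Igkv segments set the frame for these comparisons. It was 1324 and 1150 CPM in WT against 1321 and 1964 in KO spleens, and 283 and 797 in WT against 25.5 and 876 in KO small intestines, so that the genotypes overlapped in both tissues. Igkc, the constant exon shared by all kappa chains, was at 2584 and 2418 CPM in WT against 3566 and 3350 in KO spleens (log2 fold change 0.51, edgeR adjusted p = 0.481), and at 557 and 1464 in WT against 51.9 and 3073 in KO small intestines. Igkv counts per Igkc count were 0.513 and 0.476 in WT against 0.371 and 0.586 in KO spleens, and 0.508 and 0.545 in WT against 0.491 and 0.285 in KO small intestines. Igkj1 to Igkj5, rows of 38 to 43 bases, were at 0.705 to 16.5 CPM in the spleen, and the cause of this low level was not tested. Between genotypes, 0 of 6 joining and constant genes were called in the spleen and 0 of 5 in the small intestine. Against the spleen, 5 of 6 (all but Igkc) were called lower in the small intestine, where only 5 of the 6 passed the filter by themselves.

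**Figure D5:**
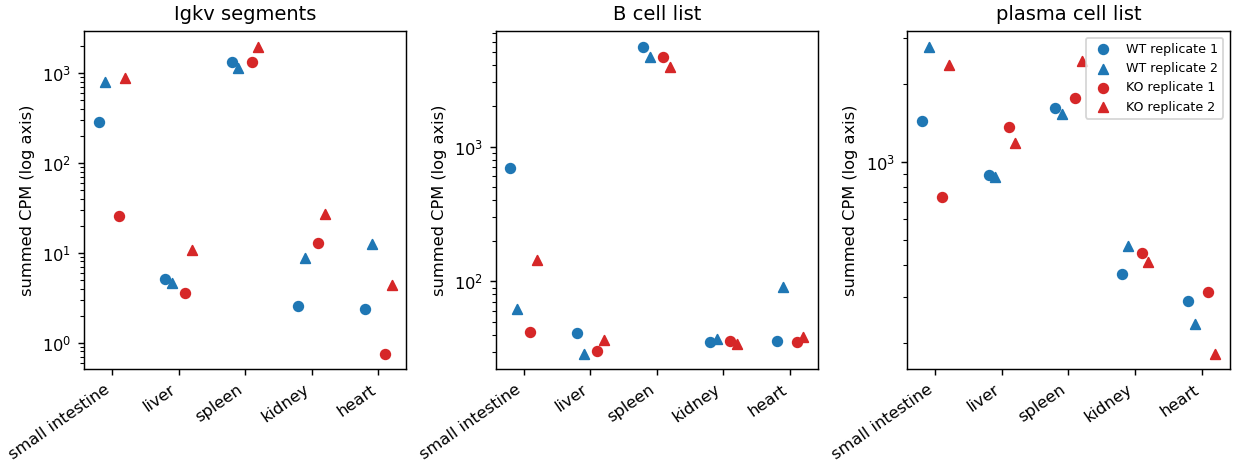
Summed CPM on a log axis of the 160 Igkv segments (left), 18 B cell genes (middle), and 16 plasma cell genes (right) in all 20 libraries, with blue for WT, red for KO, circles for replicate 1, and triangles for replicate 2. Igkv segments reached 1964 CPM in a KO spleen and 876 in a KO small intestine, while the B cell genes were low in 3 of the 4 small intestine libraries.

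Genes of the B lineage are given beside the Igkv values. In the spleen, 0 of 18 B cell genes were called, 17 had a lower estimate in KO and their median was -0.19 on the log2 scale, and their sum was 5517 and 4606 CPM in WT against 4599 and 3897 in KO. Of 16 plasma cell genes 0 were called and 11 were higher, with a median of 0.12. Jchain, which joins secreted IgM and IgA, led them at 758 and 751 CPM in WT against 980 and 1651 in KO. The lambda light chain, the alternative to kappa, had 0 of 9 tested genes called with a median of 0.04, and Iglc2, its most abundant gene, was at 348 and 270 CPM in WT against 316 and 295 in KO. Igha, the constant gene of IgA, was at 401 and 305 CPM in WT against 703 and 625 in KO spleens (log2 fold change 0.95, edgeR adjusted p = 0.145), and 0 of 8 heavy chain constant genes were called. Rag1, which cuts the DNA for V to J joining, was below 1 CPM in each spleen, and 0 of 12 tested genes of recombination and pre-B cells were called.

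In the small intestine, plasma cell genes were present in each library and B cell genes were high in 1. Jchain was at 596 and 2105 CPM in WT against 141 and 1756 in KO, and Igha at 415 and 494 in WT against 39.7 and 2276 in KO, so both were lowest in KO replicate 1, the library with the fewest Igkv counts. Ms4a1 was under 14 CPM in the 3 libraries other than WT replicate 1, and the B cell genes as a list had a median log2 fold change of -4.82 against the spleen, compared with -0.39 for the plasma cell genes, of which 6 of 16 were called lower and 3 higher (Sdc1, Prdm1, and Xbp1, which the epithelium also expresses). Genes of the follicle and germinal centre were called lower in 7 of 14 and higher in 2 (Fas and Rgs13). The lambda genes were called lower in 8 of 9 and the heavy chain constant genes in 6 of 8, where Igha was an exception (log2 fold change 0.68, edgeR adjusted p = 0.563). Only 6 lambda, 7 heavy chain constant and 11 follicle genes passed the filter in the small intestine alone. The direction of those that passed only through the spleen was set by the filter. T cell genes, as markers of the other lymphocytes present, were called lower in 11 of 14, and the parts of these cell numbers in the Igkv values were not tested.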

How the data were processed

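RNA was sequenced as stranded mRNA libraries. The deposited values are raw counts per gene: per the file headers and the labels, the authors trimmed reads with cutadapt, mapped them with HISAT2 2.1.0 to mm10 and counted exons with featureCounts 2.0.1, together with the merged exon length of each gene in bases. The stored command sets no option for strand or read pairs, although the methods name both, so mates may count separately and overlapping genes share reads. Reads with several places were not counted.

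Here edgeR 4.0.16 in R 4.3.3 (TMM, filterByExpr, robust quasi-likelihood test, Benjamini-Hochberg over all genes tested) was fitted to each tissue and to spleen and small intestine together. DESeq2 1.42.0 was an alternative. Each model was also run on counts simulated with less spread than these libraries had. Those runs do not show how the models perform at the spread seen here. Total counts had a median of 28514000. Standard errors are the estimate over the root of F. Usage, effective numbers and similarity were computed in Python 3.11.15, and sequence identity with edlib 1.3.9.post1.

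Named segments were the 10 highest by share per length in each tissue, those called, the 5 highest and 5 lowest estimates among segments whose groups did not overlap, Igkv7-33 with 2 neighbours on each side, the nearest and farthest segment, and the listed genes. Igkv8-30 was named after its values were seen. The members and lists were chosen with earlier results of these data known.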

Additional observations from a re-analysis of the deposited data

Results flagged for a closer look

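The CPM of Igkv6-17 differed between genotypes in opposite directions in the tissues, with no call in edgeR in either, while DESeq2 called it higher in the KO spleens. Its level was 14.3 and 18.5 CPM in the WT spleens and 54.6 and 29.1 in the KO spleens, so both KO spleens were higher. The WT small intestines were at 6.86 and 26.1 CPM and the KO ones at 1.49 and 4.87, so both KO libraries were lower. By share of Igkv counts the genotypes overlapped in both tissues. The shares were 1.08% and 1.61% in WT against 4.13% and 1.48% in KO spleens. In the small intestine they were 2.42% and 3.27% in WT against 5.83% and 0.556% in KO. The interaction was -3.75 ± 1.14 on the log2 scale (SE), with an edgeR adjusted p of 0.999988, so the difference failed the correction over all genes. Of 66 segments tested in both tissues, 2 had this pattern (3.03%, against 5.05% of all genes tested in both), the other being Igkv8-30 with an interaction of -3.05 ± 1.42.

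Igkv RNA was also seen in tissues whose usage was not compared. The summed Igkv level in the kidney was 2.54 and 8.77 CPM in WT against 12.7 and 27.2 CPM in KO, so both KO kidneys were above both WT kidneys, which was not tested. Igha was at 1.12 and 3.52 CPM in WT against 10.1 and 31.7 in KO kidneys, and Jchain at 3.05 and 6.83 in WT against 10.4 and 16.8 in KO. Igkv1-117 led both KO kidneys, with 54 of 362 and 150 of 762 Igkv counts.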

How the results depend on the processing

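With 2 libraries a group, counts of calls moved with most settings, and the cause was not tested. In the spleen, calls of higher segments went from 0 to 3 with DESeq2 (Igkv1-117, Igkv4-55 and Igkv6-17), 2 with scaling to summed Igkv counts and 6 with no filter, where 1.3%, 0.0319% and 0.867% of all genes were called higher (0.218% before), and from 0 to 3 when 1 library was left out (0% to 1.32% of all genes). Calls of lower segments went from 1 to 4 with DESeq2, 3 with Igkv scaling and 4 with no filter, where 0.0518%, 0.133% and 0.177% of all genes were called lower (0.00531% before), and to 0 with at least 10 counts in every library, with a fit of all 20 libraries or at an adjusted p under 0.05, and from 0 to 3 when 1 library was left out (0% to 1.51% of all genes). Without KO replicate 1, Igkv3-2 and Igkv12-46 were called higher. Igkv7-33 stayed between -5.58 and -4.81 over 10 alternatives, with adjusted p from 1.35e-29 to 1.0. It lost its call in the fit of all libraries, at an adjusted p under 0.05 and without KO replicate 2, and could not be tested with 10 counts in every library.

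DESeq2 called 1 segment lower in the small intestine (Igkv11-125), and 1 higher (Igkv7-33) and 1 lower (Igkv11-125) for the interaction. The shares of all genes that DESeq2 called in these fits are not given here, so these counts have no background beside them. The 53 segments lower in the small intestine than in the spleen became 11 with Igkv scaling, all of them segments that passed the filter only through the spleen, and 8 of 17 with 10 counts in every library, and from 37 to 101 when 1 library was left out (101 without small intestine KO replicate 2), where 2.67%, 22.6% and from 21.4% to 27.4% of all genes were called lower. With Igkv scaling Igkv6-25 and Igkv8-27 turned to 0.046 and 0.50.

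Restricted to segments with 10 counts in every library, the mean effective number was 11.8 in the spleen and 12.4 in the small intestine, and the 10 highest segments took 85.6% and 84.5%. The first and the middle map group took 26.5% and 3.93% of small intestine counts, and the middle, the next and the farthest took 5.36%, 14.1% and 42.3% of spleen counts. Without the highest segment of each library the spleen values were 54.3, 39.9%, 8.14% (middle) and 25.1% (farthest). The KO minus WT difference in effective number, -5.77 in the spleen, was -1.03 with 10 counts, -5.37 without pseudogenes and -2.24 without the highest segment. In the small intestine it was -6.89 and turned to 0.65 with 10 counts, where KO replicate 2 alone gave -2.004. On total counts without TMM, the summed Igkv level was 1876 CPM in WT and 2424 in KO spleens.

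The labels do not say that a replicate number marks a shared animal, and 2 pairs do not settle it: deviations of same-numbered WT and KO libraries correlated with 0.005 in the spleen and 0.568 in the small intestine, where the numbers went with proximal and distal markers. With the replicate block, 0 segments were called higher and 1 lower in the spleen (Igkv7-33, -5.11, edgeR adjusted p = 0.0145), 0 in the small intestine, 58 lower between tissues, and 0 for the interaction. The shares of all genes called with the block are not given here, so the 58 and the other counts have no background beside them.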
